A study of Mus musculus with 5 samples.

Results

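Zbtb16, Il4, Icos and Izumo1r, 4 genes typical of innate-like T cells that carry the factor PLZF, were followed through 5 libraries of single γδ T cells and through 8 cluster means that the authors deposited. The 4 were chosen by name from 27998 genes in the matrices, on measured values in these same data, so their levels are a description and were not tested. Each had exactly 1 row in the gene file and was also among the 10721 genes of the cluster means. Sorting took cells by their receptor chain, Vγ4 or Vγ6, and they were measured with the Chromium 3' v2 droplet kit, which counts transcripts as unique molecular identifiers (UMIs). There was 1 library each of ear skin Vγ4, ear skin Vγ6, thymus Vγ6 and peripheral lymph node (pLN) Vγ6 cells, all from C57BL/6 mice of 8 weeks. The other library pooled Vγ6 cells of mice aged 8 to 10 weeks, from pLN of TcrdCreER, thymus of ACT-FLPe and ear skin of TcrdH2BeGFP animals, with no map from cells to tissues. It therefore enters no comparison between tissues. The number of mice behind a library was not given in the sources used here.

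PLZF, the product of Zbtb16, is the transcription factor that gives invariant natural killer T cells and some γδ T cells their memory-like state. Such cells can make IL-4, the type 2 cytokine encoded by Il4, soon after stimulation, and the γδ T cells among them are also called γδNKT cells. ICOS, encoded by Icos, is a costimulatory receptor of the CD28 family. Izumo1r encodes the folate receptor FR4, also known as Juno, which binds Izumo1 on sperm at the egg surface and in T cells marks regulatory and anergic cells. Vγ6 cells are best known as IL-17 producers that settle in barrier tissues.

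On the build GRCm38, which is mm10, Zbtb16 (ENSMUSG00000066687) lies at chr9:48654297-48836222 and Izumo1r (ENSMUSG00000031933) at chr9:14885814-14903949, both on the minus strand. Il4 (ENSMUSG00000000869) lies at chr11:53602982-53618669 on the minus strand and Icos (ENSMUSG00000026009) at chr1:60977927-61000320 on the plus strand. All 4 are annotated as protein-coding. RefSeq promoter windows of 300 bases (GRCm38.p6) matched 2 of the 4 genes. The following pair is shown because the transcripts of these genes were found in the same thymus cells. The Il4 window is chr11:53618616-53618915 and that of Izumo1r chr9:14903718-14904017, both read on the minus strand. Capitals mark GGAAA, the core of many NFAT sites, or its complement TTTCC, and TGATAA, a form of the GATA motif.

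Il4: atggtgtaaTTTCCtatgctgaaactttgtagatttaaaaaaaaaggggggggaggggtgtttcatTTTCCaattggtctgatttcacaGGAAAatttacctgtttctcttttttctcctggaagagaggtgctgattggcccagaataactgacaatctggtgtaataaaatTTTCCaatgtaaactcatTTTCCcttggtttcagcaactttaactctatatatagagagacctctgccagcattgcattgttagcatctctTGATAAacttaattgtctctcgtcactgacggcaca

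Izumo1r: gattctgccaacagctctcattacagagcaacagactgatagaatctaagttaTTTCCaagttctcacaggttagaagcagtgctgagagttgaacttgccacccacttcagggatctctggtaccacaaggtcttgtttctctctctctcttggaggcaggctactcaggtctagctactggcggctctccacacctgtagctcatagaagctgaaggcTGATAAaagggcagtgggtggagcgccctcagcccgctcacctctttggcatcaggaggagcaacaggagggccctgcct

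Both windows held TGATAA once, a match that 9.05% of 32851 RefSeq windows of this length had on either strand. The Il4 window held GGAAA 5 times, counting both strands, and 0.728% of windows had 5 or more. The Izumo1r window held it once, as did the second RefSeq start of Il4, at chr11:53617289-53617588, and 61.3% of windows had at least 1. The other 4 motifs searched on both strands had no match in the 3 windows. They were the AP-1 motif TGANTCA, in 7.81% of all windows, and the E-box CAGCTG, in 16.3%. Another GATA form, AGATAA, was in 11.2%. The Egr motif GCGTGGGCG was in 0.612%. A match is letters only, and no match says nothing of a factor.

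Kept cells numbered 687 to 2517 per library with 793463 to 6607432 UMIs in all, and medians of 1059 to 2156 UMIs per cell. Skin Vγ6 was the shallowest library and thymus Vγ6 the deepest, so a share of cells with a UMI is not comparable between them without the depth. Kept libraries shared 0 to 9 cell barcodes per pair. The γδ T17 marker list had a UMI of each of its 9 genes in every library and summed to 2617.9 to 6586.8 CPM, counts per 1000000 UMIs of the library. Ear skin was digested for 75 minutes and thymus cells were treated with antibody and complement for 30 minutes, both at 37 °C, so tissue and preparation cannot be told apart. All intervals given in parentheses are at 95% and cover counting error only. Since each group had 1 library, the spread between animals is unknown and no test was made.

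Izumo1r and Il4 transcripts were found almost entirely in thymus and in the pool, whereas Icos and Zbtb16 were found in every library. Izumo1r had 5 UMIs in skin Vγ4, 0 in skin Vγ6, 934 in thymus Vγ6, 8 in pLN Vγ6 and 119 in the pool. Il4 had 0 UMIs in each skin library, 80 in thymus, 1 in pLN and 18 in the pool. For skin Vγ6 a count of 0 allows up to 3.78 CPM, or 0.437% of cells with a UMI. Thymus was therefore the highest sorted library for both genes and skin had no Il4 UMI.

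In CPM, Izumo1r was at 141 (132 to 151) in thymus Vγ6, against 1.90 (0.820 to 3.74) in pLN Vγ6. The ratio was 74.4-fold (37.6 to 173). In skin Vγ6 it was at least 37.4-fold lower than in thymus, computed from 3 counts in the skin library. Its order ran thymus, pool, skin Vγ4, pLN and skin Vγ6, and neighbours among the last 3 did not differ beyond counting error. A UMI was found in 559 of 2517 thymus cells, 22.2% (20.6 to 23.9), and in 64 of 2006 pooled cells, 3.19% (2.47 to 4.06).

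Il4 was at 12.1 CPM (9.60 to 15.1) in thymus Vγ6, against 0.237 (0.00601 to 1.32) in pLN Vγ6. The ratio of 51-fold had an interval of 8.89 to 2038.4 because it rests on 1 UMI in pLN. Thymus Il4 UMIs lay in 58 cells, 2.3% (1.75 to 2.97), with up to 6 in a cell. The 6 cells with 3 or more UMIs held 26.2% of them. The pool had 11 cells with an Il4 UMI, 0.548% (0.274 to 0.979), at 6.08 CPM (3.6 to 9.61).

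Icos was the most abundant of the 4. It was at 267 CPM in skin Vγ4, 403 in skin Vγ6, 215 in thymus, 145 in pLN and 405 in the pool, with a UMI in 27.5% to 35.0% of cells. Skin Vγ6 and the pool did not differ beyond counting error (ratio 1.0, 0.886 to 1.14), and every other neighbour in this order did. Skin Vγ6 was 2.78-fold (2.42 to 3.19) above pLN and 1.88-fold (1.66 to 2.12) above thymus. With TMM scaling the second ratio was 2.06, and with cells of at least 500 genes and at most 5% mitochondrial UMIs it was 2.46, both past 2-fold. Thymus was 1.48-fold (1.35 to 1.63) above pLN, and skin Vγ4 was at 0.663 (0.576 to 0.765) of skin Vγ6. Thinned to 800 UMIs per cell, 26.9% of skin Vγ6 cells, 14.8% of thymus cells and 9.88% of pLN cells kept an Icos UMI.

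Zbtb16 was low in every library and lowest in skin Vγ4. Counts were 9 UMIs for skin Vγ4, 23 for skin Vγ6, 131 in thymus, 128 in pLN and 93 in the pool. The corresponding levels were 4.66, 29.0, 19.8, 30.4 and 31.4 CPM. Pool, pLN, skin Vγ6 and thymus were neighbours that did not differ beyond counting error, although thymus over pLN had a ratio of 0.652 (0.507 to 0.839). Without dividing cells that ratio was 0.494. Skin Vγ4 was 6.23-fold (2.78 to 15.3) below skin Vγ6, from 9 and 23 UMIs. Leaving out cells with under 500 genes or over 5% mitochondrial UMIs put skin Vγ6 at 15.4 CPM from 142 cells and ended this call.

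**Figure D1:**
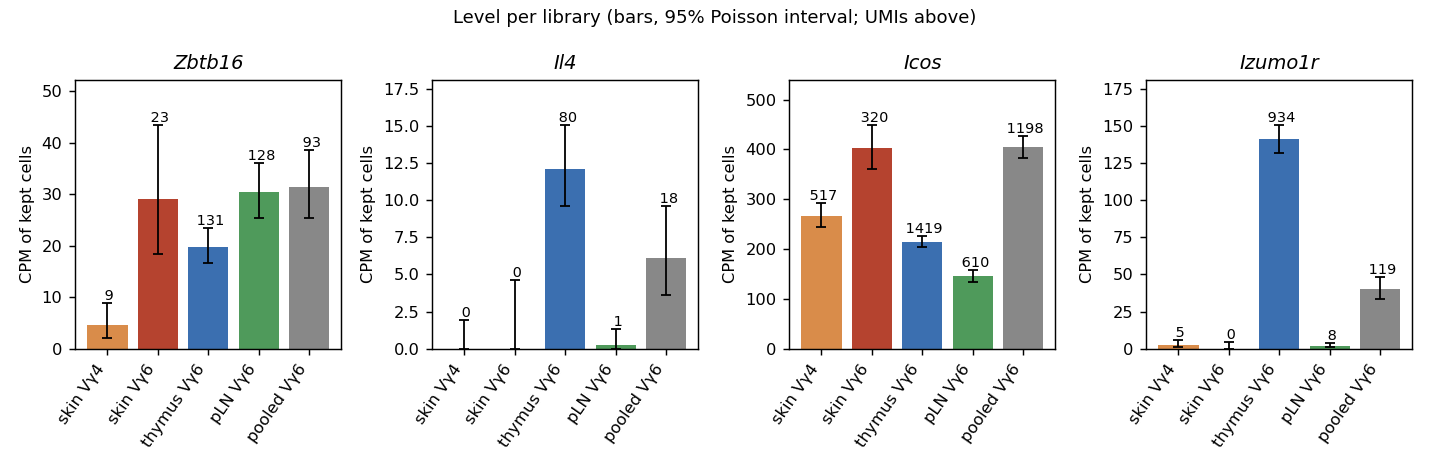
Level of each gene in counts per 1000000 UMIs (CPM, linear axis from 0, scaled per panel) in the 5 libraries, with exact 95% Poisson intervals and the UMI count above each bar. Izumo1r and Il4 stand at 141 and 12.1 CPM in thymus Vγ6 and near 0 in skin and pLN, while Icos and Zbtb16 are present in all 5 libraries.

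A gene was called when it differed at least 2-fold with at least 20 CPM in the higher library. In thymus over pLN, 1 of 3 measured genes was called higher, Izumo1r, and 0 lower, where 11.8% of all measured genes were higher and 11.3% lower. For skin Vγ6 over pLN, 1 of 2 was higher, Icos, and 0 lower, against 16% higher and 30.5% lower. For skin Vγ6 over thymus, 0 of 3 were higher and 1 lower, Izumo1r, against 13.7% and 24.5%. For skin Vγ4 over skin Vγ6, 0 of 2 were higher and 1 lower, Zbtb16, against 4.4% and 3.2%. With so few genes these counts say nothing beyond the single values. Il4 stayed below 20 CPM in every library and was not measured by this limit.

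Cells that should lack all 4 genes were few: 37 over all libraries had at least 3 UMIs of antigen-presenting, B, keratinocyte or fibroblast markers and no CD3 UMI. Of these, 0 had an Il4 or Izumo1r UMI, and a count of 0 allows a share of up to 8.11%, computed from 3 counts. In the thymus library there were 4 such cells, which allows up to 75%. Zbtb16 was found in 1 and Icos in 3 of the 37. In the other 7809 cells the shares were 4.6% for Zbtb16, 0.896% for Il4, 31.6% for Icos and 8.11% for Izumo1r. Median depths were 1281 and 1613 UMIs. This check therefore sets none of the low shares of Zbtb16, Il4 or Izumo1r apart from free RNA, and says nothing of thymus.

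The authors' deposited table of means gave all 4 genes their highest value in the same thymus cluster, Thy_3, a pattern that the choice of these genes had used. The values are the authors' means on a scale on which each column sums to 10000, without an error. Il4 was at 1.08 in Thy_3 and next at 0.0295 in Thy_5, so that 96.3% of its summed means lay in Thy_3, and 3 columns were listed at 0. Izumo1r was at 5.64 in Thy_3 and 1.5 in Thy_1. Icos was at 8.28 in Thy_3 and 5.04 in Thy_2, with 4.35 in Skin. Zbtb16 was at 0.860 in Thy_3 and 0.447 in pLN_1.

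The authors' deposited table of markers listed Il4 in 22.4% of Thy_3 cells, Icos in 82.4%, Izumo1r in 65.3% and Zbtb16 in 21.8%. A p-value over cells was deposited with these entries and is not used.

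**Figure D2:**
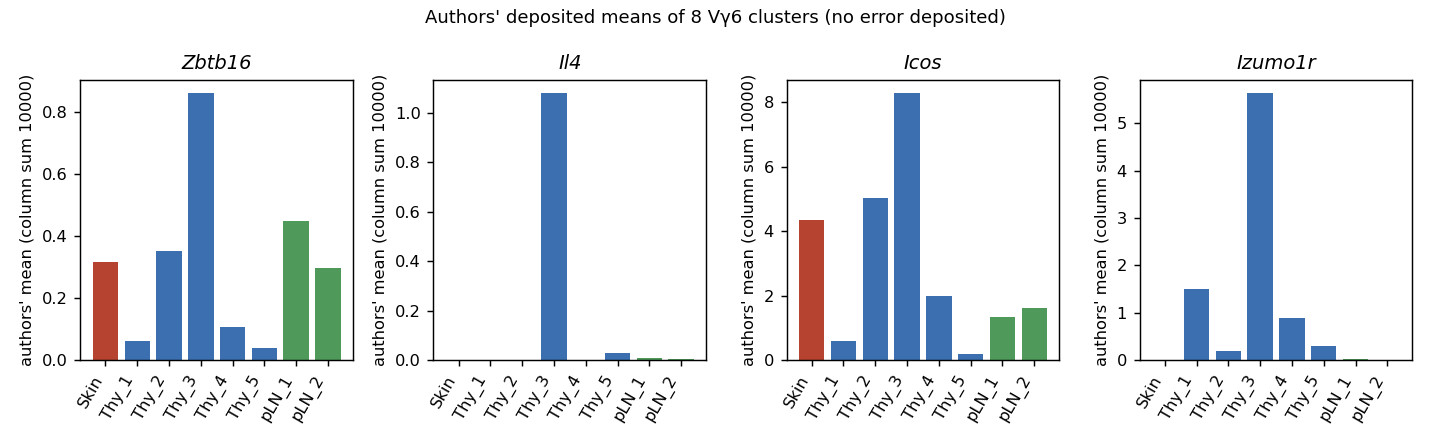
The authors' deposited mean of each gene in 8 Vγ6 clusters (linear axis from 0, columns sum to 10000, no error deposited), coloured by tissue. All 4 genes peak in Thy_3, but the next highest cluster differs: pLN_1 for Zbtb16, Thy_5 for Il4, Thy_2 for Icos and Thy_1 for Izumo1r.

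The 4 patterns over the 8 columns were only partly alike. Pearson's r on log2(mean + 0.1) was 0.83 for Zbtb16 and Icos, 0.71 for Il4 and Izumo1r, 0.59 for Zbtb16 and Il4, 0.46 for Il4 and Icos, 0.14 for Icos and Izumo1r, and 0.03 for Zbtb16 and Izumo1r. These are descriptions over 8 points that share libraries and depth. Genes among the 5 most like Il4 were Fabp7 (r = 0.984), Hdc (0.952), Lgals7 (0.937) and Rplp2 (0.936). Izumo1r was most like Nrgn (0.993), Rbpms (0.982), Riok1 (0.958), Timp2 (0.944) and Ugcg (0.944). Zbtb16 was most like Psme2 (0.906), Syngr2 (0.898), Fam129a (0.896), Cers5 (0.867) and Smco4 (0.859). Icos was most like Stk40 (0.896), Psme2b (0.878), Gramd1a (0.877), Psme2 (0.875) and Tpst2 (0.872). With a pseudocount of 1, 2 of the 5 genes named for Zbtb16 and 1 of the 5 for Icos stayed among the first 5.

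Cells were then matched to the authors' 8 columns over 1000 other genes, with the 4 genes left out. Which cells made those columns was not given in the sources used here, and where the sorted libraries did, a match repeats the authors' grouping. The pool holds other mice, and whether it entered the columns was not stated. In the thymus library 182 of 2517 cells, 7.23%, matched Thy_3 best. They held Zbtb16 at 88.7 CPM (65.6 to 117), Il4 at 129 (100 to 162), Icos at 730 (660 to 805) and Izumo1r at 473 (417 to 534). The other thymus cells held 13.5, 1.49, 168 and 111 CPM of these genes in the same order.

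Concentration in this set differed between the genes. It held 88.8% of the library's Il4 UMIs but 37.4% of Zbtb16, 28.4% of Icos and 27.9% of Izumo1r. Most Izumo1r UMIs, 53.7%, lay in the 1268 cells matched to Thy_1, at 163 CPM (149 to 178), where Icos was at 71.9 CPM and Il4 at 0.651. Icos UMIs lay most often, 47.6%, in the 650 cells matched to Thy_2, at 484 CPM (448 to 522), where Izumo1r was at 29.4 CPM and Il4 at 0 UMIs. Zbtb16 was at 30.8 CPM (22.3 to 41.5) in the Thy_2 set and 9.11 (6.05 to 13.2) in the Thy_1 set. The Thy_2 set carried the IL-17 type gene Cd163l1, a scavenger receptor of Vγ6 cells, at 1057.0 CPM. In the Thy_3 set it was at 56.1 CPM.

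In the pool 26 of 2006 cells, 1.3%, matched Thy_3. They held Zbtb16 at 119 CPM (38.7 to 278), Il4 at 357 (200 to 589), Icos at 1143.3 (843 to 1515.9) and Izumo1r at 667 (443 to 964). Pooled cells outside this set held 30.1, 1.03, 394 and 31.2 CPM in the same order. The set held 15 of 18 Il4 UMIs, 83.3%. Again most Izumo1r UMIs, 57.1%, lay in the Thy_1 set, and most Icos UMIs, 56.8%, in the Thy_2 set. Sets of the pool that matched skin held Icos at 449 CPM and 0 UMIs of Izumo1r.

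**Figure D3:**
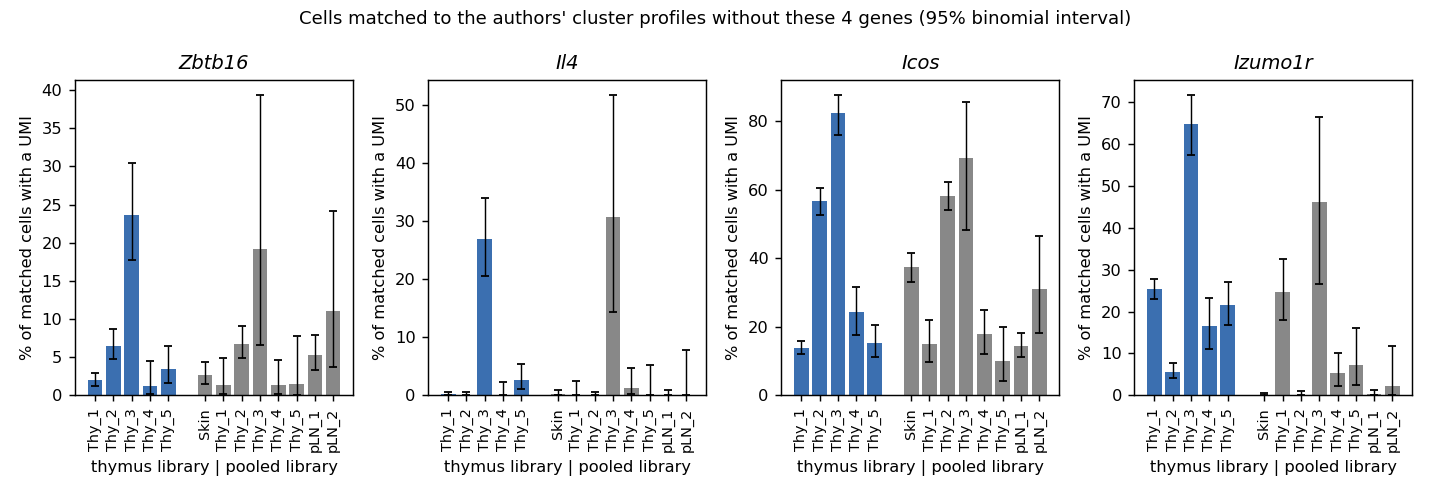
Percent of cells with at least 1 UMI of each gene (linear axis from 0, exact 95% binomial intervals), in thymus Vγ6 cells (blue) and pooled Vγ6 cells (grey) matched to the authors' clusters without these 4 genes. Il4 is found in 26.9% of Thy_3-matched thymus cells and 30.8% of Thy_3-matched pooled cells, of which there are only 26, and in under 3% of every other set.

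Within single thymus cells Il4 was found together with the other 3 genes more often than their separate shares would give. Of the 58 cells with an Il4 UMI, 49 had an Icos UMI, against 19.9 from the product of the shares within 10 classes of depth. For Izumo1r these were 46 against 18.4, and for Zbtb16 16 against 3.88. Both Icos and Izumo1r were found in 41 of the 58 cells, and 4 had neither. Cells with an Il4 UMI were deeper, with a median of 3414.5 UMIs against 2143 in cells without one. The product was therefore taken within 10 classes of equal cell number by depth.

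The remaining pairs stood apart less. Zbtb16 and Icos shared 75 cells against 39.1, Zbtb16 and Izumo1r 50 against 33.0, and Icos and Izumo1r 204 against 185. All 4 genes were found in 14 cells against 0.480, and 12 of these 14 matched Thy_3. In the Thy_3 set all 6 pairs lay above the product of their shares there, by less than in the library. Il4 and Izumo1r shared 40 cells against 31.8, Il4 and Icos 43 against 40.4 and Zbtb16 and Il4 14 against 11.6. For Zbtb16 and Izumo1r it was 33 against 27.9, for Zbtb16 and Icos 40 against 35.4 and for Icos and Izumo1r 98 against 97.3. In the Thy_2 set Zbtb16 and Icos shared 23 against 23.8, Icos and Izumo1r 19 against 20.9 and Zbtb16 and Izumo1r 3 against 2.39. In the Thy_1 set these pairs shared 6 against 3.47, 61 against 44.7 and 10 against 6.35. The products within matched sets were not taken within depth. Of the 69 thymus cells with 3 or 4 of the genes, 56 matched Thy_3.

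The pool mixes tissues, and its cells of skin or pLN type hold almost no Il4 or Izumo1r, so that its products for these genes are low by construction. Of its 11 cells with an Il4 UMI, 10 had Icos against 4.39, 8 had Izumo1r against 0.469 and 4 had Zbtb16 against 0.569. Within its 26 cells matched to Thy_3, Il4 and Icos shared 7 against 5.54, Il4 and Izumo1r 6 against 3.69 and Zbtb16 and Il4 4 against 1.54. There Zbtb16 and Icos lay below the product, at 3 against 3.46. Zbtb16 and Izumo1r shared 3 against 2.31, and Icos and Izumo1r 9 against 8.31. Over the whole pool Zbtb16 and Izumo1r shared 4 cells against 4.01, and Icos and Izumo1r 24 against 28.2. In pLN Zbtb16 and Icos shared 38 cells against 39.2, and in skin Vγ6 11 against 8.44. The pLN and both skin libraries had 0 cells with 3 or more of the genes.

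**Figure D4:**
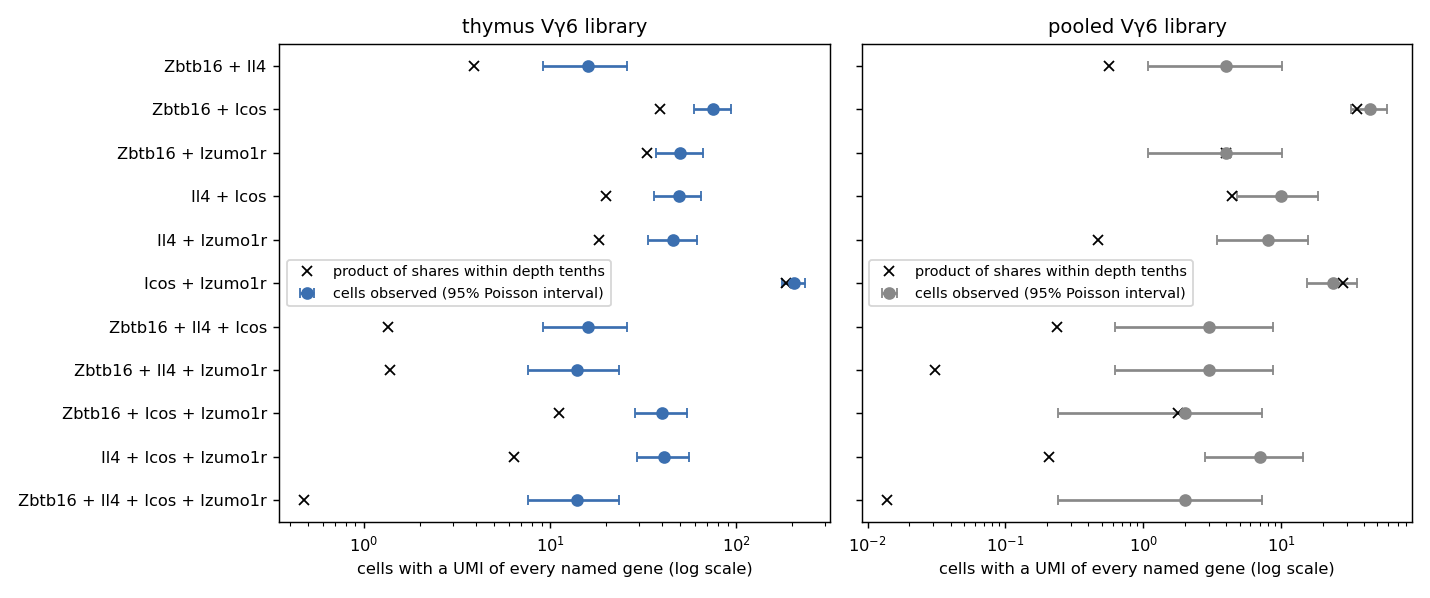
Cells with a UMI of every named gene (points, log axis, exact 95% Poisson interval) beside the number given by the product of the single shares within 10 classes of depth (crosses), in the thymus and the pooled Vγ6 library. Combinations with Il4 lie right of their crosses in thymus, such as 49 cells against 19.9 for Il4 and Icos, whereas Icos and Izumo1r lie close, at 204 against 185.

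Cells thinned to 800 UMIs gave the same direction in thymus from far fewer cells. Icos was kept in 12 of 21 Il4-positive cells, 57.1% (34.0 to 78.2), and in 14.5% of Il4-negative cells. Izumo1r was kept in 4 of 21, 19.0% (5.45 to 41.9), and in 8.73% of negative cells, intervals that overlap. Of 39 Zbtb16-positive cells, 23.1% (11.1 to 39.3) kept Icos and 17.9% (7.54 to 33.5) kept Izumo1r, against 14.7% and 8.67% of negative cells. The draw is a single one and the Il4 shares move widely with the depth chosen. Icos was in 33.3% at 1200 UMIs and 84.5% without thinning, and Izumo1r in 79.3% without thinning. The mean over all possible draws, a setting chosen after seeing the data, was 45.0% for Icos and 38.0% for Izumo1r.

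Thymus cells with an Il4 UMI also differed from the other thymus cells in genes outside the 4. Of these 58 cells 49 matched Thy_3, a set of 182 cells, and no comparison was made within that set. The values below therefore do not set Il4-positive cells apart from the rest of the Thy_3 set. The genes with the highest ratio at 100 CPM or more were Hdc at 134 CPM in positive and 12.9 in negative cells, which makes histamine, then Trf, encoding transferrin, at 292 and 70.1. Next came Nt5e, encoding the ectoenzyme CD73 of anergic and regulatory cells, at 110 and 30.2, Izumo1r at 455 and 129, and Icos at 650 and 198. Fam129a, Bcl2a1b and Smpdl3a followed at 118 and 36.6, 378 and 119, and 394 and 126 CPM. In the 11 pooled Il4-positive cells, a number below the 50 set for this comparison, Hdc had 2 UMIs, Trf 4, Nt5e 0 and Fam129a 7. Bcl2a1b was there at 646 CPM in positive and 1020.6 in negative cells, a ratio whose interval held 1.

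Among type 2 genes, Il17rb, the IL-25 receptor subunit, was at 44.7 CPM in Il4-positive and 8.49 in Il4-negative thymus cells (5.26-fold, 2.48 to 10.2), and the chemokine receptor Ccr4 at 56.9 and 22.0. The IL-4 receptor gene Il4ra of the same list was lower, at 20.3 and 56.0 CPM (0.363, 0.117 to 0.855), and Stat6, its signal transducer, was at 16.2 and 25.2, an interval that held 1. Of the regulatory and anergic list, Tnfrsf4, encoding OX40, was at 52.8 and 12.1 CPM and Ikzf2, encoding Helios, at 504 and 816. The γδNKT list went both ways. Gzma at 167 and 714 CPM and Klrd1 at 4.06 and 55.3, both of cytotoxic cells, were lower, while Ctsw, encoding cathepsin W, was higher at 227 and 126 (1.81-fold, 1.35 to 2.37). Cd160 and Xcl1 stood at 52.8 and 28.8 and at 32.5 and 27.2 CPM, with intervals that held 1. Of thymocyte genes Ccr9 was at 44.7 and 175 CPM and Cd24a, which marks immature cells, at 93.4 and 285. Of the IL-17 list Blk, a kinase of IL-17 type γδ cells, was at 20.3 and 107 CPM, Il17a at 4.06 and 27.8, and 5830411N06Rik had 0 UMIs in positive cells and 34 CPM in negative cells. Maf of the same list was at 77.2 and 72.9 CPM and Cd44 at 36.6 and 68.9, with intervals that held 1. In the authors' means 5830411N06Rik did not follow the IL-17 type set Thy_2, at 0.638 in Thy_1 and 0.0437 in Thy_2. Of the innate-like factors Id2 and Id3, inhibitors of E proteins, had the highest ratios, at 983 and 499 and at 252 and 130 CPM. Sox4 of that list was lower at 97.5 and 301 CPM and Nfil3 at 20.3 and 50.8, while Gata3 and Egr1 had intervals that held 1. In the authors' means Hdc, Nt5e, Il17rb, Ccr4 and Tnfrsf4 were each highest in Thy_3, and Ctsw in Thy_4.

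Basophils and mast cells also make IL-4 and histamine. Of 11 mast or basophil markers 8, among them Gata2, Fcer1a and Mcpt8, had 0 UMIs in the whole thymus library. Of the other 3, Il4-positive thymus cells had 33 UMIs of Hdc, 2 of Cpa3 and 1 of Kit. The list summed to 146 CPM in positive and 154 in negative cells, and 34.5% (22.5 to 48.1) of positive and 20.7% (19.1 to 22.3) of negative cells had a UMI of it. In the pool it summed to 108 and 32.3 CPM, from 2 Hdc UMIs in positive cells. The ILC2 list summed to 65.0 and 11.5 CPM, with Il17rb leading, Il13 at 3 UMIs and Il5 and Klrg1 at 0 in positive cells. Il1rl1, the remaining gene of the list, had 2 UMIs in the whole thymus library and was found in positive cells. A UMI of the ILC2 list was in 20.7% (11.2 to 33.4) of positive and 2.77% (2.15 to 3.49) of negative cells. The part of such cells was not tested. Markers of αβ T cells or thymocytes summed to 52.8 and 92.1 CPM, and 4 of the 7 were at 0 in positive cells. The share of cells with a UMI of this list was 17.2% (8.59 to 29.4) in positive and 14.3% (13.0 to 15.8) in negative cells. In the authors' means Cd4 was highest in Thy_3, at 0.241, where Cd8a and Ptcra were at 0. Before the sort, CD4- or CD8-bearing thymus cells had been depleted, per the labels. Every Il4-positive cell had a UMI of the γδ T17 list, at 3590.4 CPM against 4458.1, but so did 99.6% of negative cells. Of its 9 genes 1 was at 0 in positive cells. The list includes the CD3 genes, which αβ T cells also carry, so it cannot tell γδ from αβ cells. Receptor segment genes are not analysed here, and the part of αβ natural killer T cells in these values was not tested.

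Izumo1r-positive thymus cells were compared in the same way. Nrgn, encoding the calmodulin-binding protein neurogranin, led at 329 CPM in positive and 118 in negative cells, then Trf at 125 and 60.1, Cpa3 at 187 and 101, Cd9 at 219 and 121, Ptms at 116 and 67.9, Gyg at 132 and 82.5, Igfbp4 at 143 and 89.2 and Id3 at 182 and 116. Of the CD28 list Cd28 was higher at 305 and 206 CPM and Ctla4 lower at 25.2 and 38.0, and of thymocyte genes Tox2 was higher at 59.5 and 31.2 and Dntt lower at 46.6 and 76.3. Of the IL-17 list these were lower: Il23r, the IL-23 receptor, at 20.4 and 64.5, and Cd163l1 at 123 and 348 CPM, while 5830411N06Rik was at 33.8 and 32.3. The mast list summed to 233 CPM in positive and 122 in negative cells, led by Cpa3, and 32.7% and 17.6% of cells had a UMI of it. Its part in these values was not tested. In the pool, Nrgn was at 421 and 51.2 CPM, Igfbp4 at 272 and 19.9 and Cpa3 at 244 and 15.3 CPM, where the negative cells include those of skin and pLN.

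Icos-positive thymus cells had cytokine and receptor genes among their first 8. Bcl2a1b, an anti-apoptotic Bcl2 relative, led at 250 CPM in positive and 68.6 in negative cells, followed by the IL-18 receptor gene Il18r1 at 300 and 89.5, Bcl2a1d at 154 and 49.2, the chemokine receptor Ccr2 at 208 and 69.3 and the cytokine Il22 at 205 and 71.6. Lgals3, Serpinb1a and Klrk1 stood at 134 and 49.6, 367 and 139, and 155 and 61.2 CPM. Of the IL-17 list these were higher: Il23r at 95.3 and 30.6, Cd163l1 at 468 and 194 and Cxcr6, a residency receptor, at 581 and 243 CPM. The exception was 5830411N06Rik, lower at 16.9 and 40.6 CPM (0.416, 0.284 to 0.595). Of thymocyte genes Dntt was at 33.7 and 85.0 CPM and Itm2a at 143 and 326. In the pool, which mixes tissues, the leading ratios were nearer to 1: Bcl2a1b at 1.42 (3.65 in thymus), Il18r1 at 1.0 (3.35), Bcl2a1d at 1.5 (3.13) and Ccr2 at 1.3 (3.01). Il22 was at 414 and 186 CPM there, and Lgals3 was lower in positive cells, 382 and 810.

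Zbtb16-positive thymus cells shared Trf (206 CPM in positive and 69.8 in negative cells), Nrgn (415 and 162) and Izumo1r (302 and 131) with the Il4- or Izumo1r-positive cells. They also shared Bcl2a1b (266 and 120) and Il18r1 (312 and 149) with the Icos-positive cells. Hey1, Cst7 and Slc29a1 completed the first 8 at 113 and 48.9, 113 and 49.4, and 156 and 76.1 CPM. Ccr8, a chemokine receptor of type 2 cells, was at 28.8 and 8.72 CPM and Stat6 at 12.0 and 25.7, an interval that held 1. Of the IL-17 list Cxcr6 was at 432 and 350 CPM, Cd163l1 at 283 and 285 and 5830411N06Rik at 12.0 and 34.1. In the pool Nrgn kept a ratio of 2.23 (1.39 to 3.42), at 145 and 65.1 CPM, the intervals of Trf, Izumo1r, Hey1, Cst7, Il18r1 and Slc29a1 held 1, and Bcl2a1b was at 798 and 1031.3 CPM. Positive thymus cells were deeper for each of the 4 genes, for Zbtb16 with a median of 2650 UMIs against 2136.5 in negative cells.

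**Figure D5:**
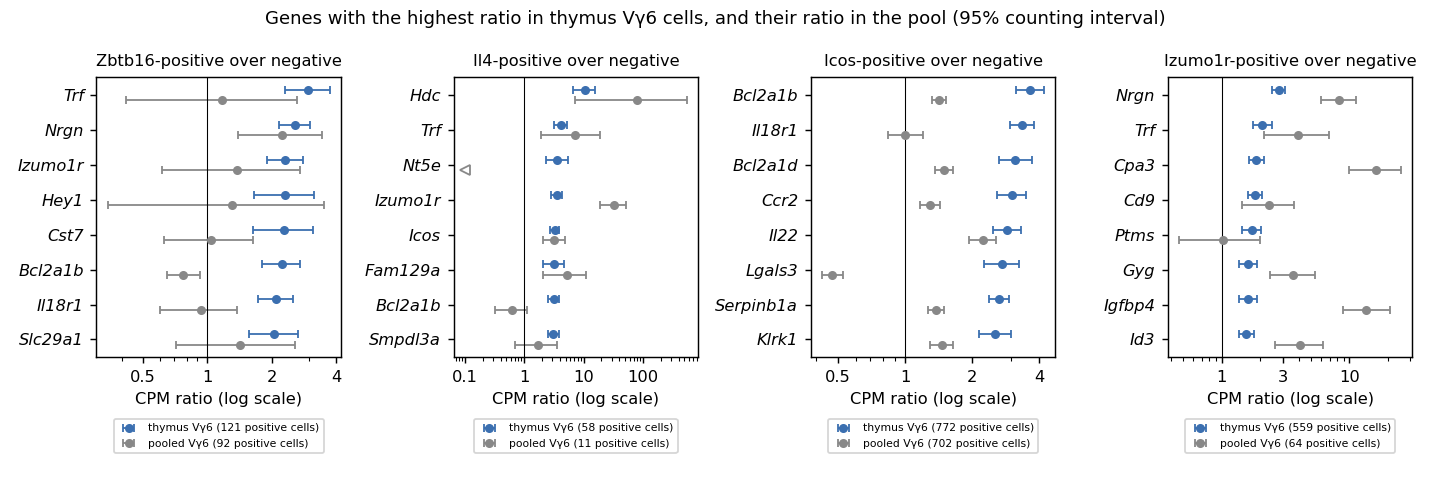
Ratio of CPM in positive over negative cells (log axis, 95% counting interval) for the 8 genes highest in thymus Vγ6 cells (blue), with their ratio in the pool (grey); the open triangle is a gene at 0 UMIs in 11 pooled Il4-positive cells. The thymus ratios were selected as the highest and so lie right of 1, while in the pool several, such as Lgals3 at 0.472, lie left of it.

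Across tissues, other genes of these pathways were counted in 8 lists. For thymus over pLN the counts stand beside 11.8% of all measured genes called higher and 11.3% lower, and a gene can pass the 20 CPM limit through the library where it is high alone. Of the CD28 family and ICOS signalling list, 4 of 8 measured genes were higher in thymus than in pLN and 0 lower, with a median log2 ratio of 0.56 against -0.13 over all measured genes. Cd28 stood at 234 CPM (thymus) and 2.14 CPM (pLN) and Pdcd1, encoding PD-1, at 305 and 59.1. Ctla4 was at 34.4 and 0.475 CPM. SLAM and SAP genes, which relay the signals that select PLZF-type cells, had 2 of 6 higher and 0 lower (median 0.28). These were Sh2d1a, encoding SAP, at 189 CPM (thymus) and 9.5 CPM (pLN), and Slamf6 at 48.0 and 3.8. Sh2d1a and Slamf6 passed the 20 CPM limit only through thymus. Within 2-fold, Cd84 was lower in thymus at 45.4 and 88.6 CPM and Ly9 at 37.1 and 61.7, while Fyn was higher at 86.9 and 49.9. Slamf1, at 20.9 and 24.7 CPM, had a ratio whose interval held 1.

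Of the γδNKT list, 9 of 12 were higher in thymus than in pLN and 0 lower (median 2.79), such as Plac8 at 649 and 13.8 CPM and Gzma at 694 and 15.9. Thymocyte genes were 8 of 9 higher and 0 lower (median 4.70), with Cd24a at 278 and 3.8 CPM. Innate-like factors were 6 of 16 higher and 4 lower (median 0.37), with Sox4 at 293 and 4.99 CPM. The IL-17 programme was 2 of 12 higher and 7 lower (median -1.40). Regulatory and anergic genes were 3 of 5 higher and 2 lower (median 1.33), with Tnfrsf18, encoding GITR, at 225 and 25.9 CPM. Of type 2 genes other than Il4, 1 of 3 was higher and 0 lower (median 0.53), Il4ra at 54.6 and 7.84 CPM. Markers of other cells also differed between thymus and pLN: mast or basophil markers summed to 153 and 1.9 CPM, αβ T or thymocyte markers to 90.7 and 12.8, dendritic markers to 36.5 and 401 and B cell markers to 21.6 and 111. Their part in these values was not tested.

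In skin Vγ6 against thymus, 1 of 8 genes of the CD28 list was higher and 3 lower (median -0.57 against -0.27 over all measured genes, of which 13.7% were higher and 24.5% lower). Cd28 was at 2 UMIs and 234 CPM and Ctla4 at 0 UMIs and 34.4 CPM. SLAM and SAP genes were 1 of 6 higher and 3 lower (median -0.88), with Sh2d1a at 0 UMIs in skin. Type 2 genes were 3 of 5 higher and 0 lower (median 1.13), Il5 at 47.9 and 0.151 CPM, Csf2 at 32.8 and 1.66 and Il4ra at 121 and 54.6. Il5 and Csf2 passed the 20 CPM limit only through skin. The type 2 list also holds Csf2, Ifng, Il2, Il10 and Il21, which are not specific to type 2 cells. The IL-17 programme was 10 of 13 higher and 1 lower (median 1.84). Skin Vγ6 against pLN gave 4 of 5 type 2 genes higher and 0 lower (median 2.33 against -0.38), where 16% of all measured genes were higher and 30.5% lower. These 4, Il5, Csf2, Il4ra and Stat6, passed the 20 CPM limit only through skin, so their count is not a result about the list. Of the CD28 list 1 of 6 was higher and 1 lower (median 0.37). Mast or basophil, αβ T, dendritic and keratinocyte markers summed in skin Vγ6 to 7.56, 17.6, 149 and 260 CPM, against 153, 90.7, 36.5 and 53.6 in thymus, and their part was not tested.

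Between the skin libraries, Vγ4 was set against Vγ6. Of 15 innate-like factors 1 was higher, Sox4 at 50.7 and 2.52 CPM, and 1 lower, Irf4 at 10.9 and 49.2 (median 0.06 against -0.05), where 4.4% of all measured genes were higher and 3.2% lower. Of 5 CD28 list genes 0 were higher and 1 lower, Pdcd1 at 115 and 349 CPM (median -0.07). Type 2 genes were 1 of 6 higher and 2 lower (median -0.50), with Ccr8 at 38.8 and 13.9 CPM and Csf2 at 4.14 and 32.8. Sox4 and Ccr8 passed the 20 CPM limit only through Vγ4, and Irf4 and Csf2 only through Vγ6. Summed keratinocyte markers were 1089.9 CPM (skin Vγ4) and 260 CPM (skin Vγ6), and their part in these values was not tested.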

How the data were processed

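The deposited matrices held raw UMI counts per gene and cell, made by the authors with Cell Ranger 2.0 and Seurat 2.3 on mm10, per the submitters' processing notes, which do not say which tool did what. The authors' deposited cluster means are mean values scaled so that each column sums to 10000. Their marker table holds natural log fold changes, the fraction of cells with the gene and p-values, computed by the authors over cells before deposit. How the clusters were made was not given in the sources used here.

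Barcodes with at least 200 genes and at most 10% mitochondrial UMIs were kept, and no doublets were removed. Counts were summed per library and scaled to CPM. Intervals at 95% are exact Poisson for CPM, Clopper-Pearson for shares and conditional binomial for ratios, and PCR duplicates were already collapsed into UMIs. A count of 0 was bounded by 3 counts. Lists were read as medians of log2 ratios with a pseudocount of 1 CPM. Cells were thinned once to 800 UMIs, which left out 323 pooled, 125 skin Vγ6, 39 skin Vγ4, 10 thymus and 0 pLN cells. For matching, each cell took the column with the highest Spearman correlation, among its own tissue's columns or, in the pool, all 8. Alternative factors came from edgeR 4.0.16 (TMM) and DESeq2 1.42.0 (median of ratios) in R 4.3.3, with the rest in Python 3.11.15 (scipy 1.17.1, pandas 2.3.3). Scripts were tested on simulated data.

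The members and the gene lists were chosen with earlier results of these data known. Genes were named as the 4 members, up to 4 highest or lowest of a list, the 5 with the highest r and the 8 with the highest positive-over-negative ratio, with mitochondrial and ribosomal protein genes left out of the last. The 1000 matching genes, the pool's Il4-positive values and the counts within matched sets were chosen after the files had been seen. Some genes that these rules would name are not reported here.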

Additional observations from a re-analysis of the deposited data

How the results depend on the processing

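No paired analysis was possible because each group had 1 library and no result came from a test, and no library could be left out in turn for the same reason. All 24 values for cells matched to Thy_3 (3 other ways of matching, of which the multinomial likelihood was chosen after seeing the data) moved by less than their interval. For the other results the cause was not tested. Zbtb16 in skin Vγ6 over pLN turned to 1 with all barcodes, 1.13 under TMM and 1.15 under DESeq2's factors, and in skin Vγ6 over thymus to 0.848 with at least 500 genes and at most 5% mitochondrial UMIs. That filter, which left 249 skin Vγ4 and 142 skin Vγ6 cells, put Icos in skin Vγ6 over thymus at 2.46 and Icos in skin Vγ4 over skin Vγ6 at 0.492, both calls, and Zbtb16 in skin Vγ4 over skin Vγ6 at 0.252, no call. Icos in skin Vγ6 over thymus was also called at 2.06 (TMM) and 2.22 (median of ratios). Zbtb16 in thymus over pLN was called at 0.494 without dividing cells, and in skin Vγ4 over skin Vγ6 it was no longer called with a minimum of 50 CPM (0.161). With no CPM minimum Il4 was called in thymus over pLN (51) and in skin Vγ6 over thymus (0).

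Genes higher and lower moved by construction with no minimum to 3940 and 2593 (thymus over pLN), 2711 and 5430 (skin Vγ6 over pLN), 2430 and 6205 (skin Vγ6 over thymus) and 3306 and 1760 (skin Vγ4 over skin Vγ6), and with 50 CPM to 366 and 356, 555 and 1038, 470 and 702, and 70 and 49. Main counts were 673 and 647, 922 and 1758, 773 and 1387, and 219 and 159. In skin Vγ4 over skin Vγ6 they were 702 and 597 with the stricter filter, and 307 were lower after thinning. The share of calls that were higher was 34.4% for skin Vγ6 over pLN, 47% under TMM and 48.1% under DESeq2's factors, which moved the median log2 ratio of all genes from -0.38 to -0.13 and -0.11. For skin Vγ6 over thymus it was 35.8%, and 51.2% under DESeq2's factors, with medians of -0.27 and -0.03, and TMM moved the median of thymus over pLN from -0.13 to -0.01.

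Shares among thinned cells depended on depth. In thymus they were, without thinning, 84.5% (Icos in Il4-positive), 79.3% (Izumo1r in Il4-positive), 62% (Icos in Zbtb16-positive), 41.3% (Izumo1r in Zbtb16-positive) and 36.5% (Icos in Izumo1r-positive), and at 1200 UMIs 33.3% (Icos in Il4-positive) and 41.5% (Icos in Zbtb16-positive). In the pool, Icos in Zbtb16-positive cells was 23.1%, below the 25.9% of negative cells, but 47.8% against 34.4% without thinning, 46.2% against 36% at 1200 UMIs and 28.9% against 25.4% as the mean over all draws, added after seeing the data. Izumo1r in Zbtb16-positive pooled cells turned to 2.56% and Icos in Izumo1r-positive ones to 21.1% at 1200 UMIs, and Icos in Izumo1r-positive ones to 25% without the 5% of cells with most UMIs. Il4 rests on 80 thymus and 18 pooled UMIs, which limits each value built on it.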
